A study of Mus musculus with 7 samples.

Results

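Interferon-stimulated genes, the antiviral programme that cells switch on when interferon binds its receptor, were followed in mouse bone marrow with and without the microRNA cluster miR-181a2b2. The set holds 48 genes chosen by symbol and found by their Ensembl IDs among the 49315 genes of the count table. All 48 had counts and passed the filter on low counts that left 17920 genes for testing. RNA was sequenced after poly(A) selection from 4 KO libraries (miR-181a2b2-/-) and 3 flox libraries (miR-181a2b2 flox/flox). Both groups were fed chow, and both had undergone hindlimb ischemia, the surgical loss of blood flow to a leg, so there was no unoperated group. The labels give no strain, age, sex, time after surgery or Cre driver. Nor do they tie each library to its own animal, so the p-values reflect only how far these libraries differed, which may be technical.

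Total counts were 43110251 to 48320848 in KO libraries and 46151300 to 51688514 in flox libraries, of which the 48 genes took 132813 to 187869 in KO and 131882 to 162341 in flox. Levels are given as CPM, counts brought to a common depth with TMM-scaled library sizes. Neutrophil markers summed to 34163 to 42999 CPM in KO libraries and 42784 to 60513 CPM in flox libraries, so the labelled marrow carried its defining cells, although the extraction protocol in the labels names another tissue. Flox 1 stood apart on the first principal component (34.7% of variance). Mitochondrially encoded genes took 0.916% to 1.104% of counts in KO and 0.973% to 1.06% in flox.

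Type I interferons signal through the receptor pair IFNAR1 and IFNAR2 and the kinases JAK1 and TYK2 to the complex ISGF3, which holds STAT2 and IRF9. ISGF3 binds the interferon-stimulated response element in promoters and turns on genes that sense, degrade or block viral nucleic acid. Interferon gamma acts through IFNGR1 and IFNGR2 on the gamma-activated site, and many GTPase genes answer to it. In marrow a low level of this programme runs without infection, and stem cells, monocytes, granulocytes and plasmacytoid dendritic cells all carry parts of it.

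The response element was searched for in the promoter windows of RefSeq (GRCm38.p6, 250 bases before to 50 bases after each annotated start), as GAAA, any 2 bases and GAAA again, on either strand. A window was given for 38 of the 48 genes, and 20 of these (52.6%) held a match, against 3.99% of the 27025 genes with a window. Of the 30 distinct matches, which can overlap each other, 26 lay wholly before the annotated start. The gamma-activated site, searched as TTCNNNGAA on either strand, was in the windows of 7 of the 38 genes (18.4%), against 9.55% of all genes, and 0 matches of the response element overlapped it. A match describes the letters and is not a measured binding site. The stretches below are shown because these genes carry the contrasts described afterwards: a pair of near-copies that stood highest in KO 1 (Ifit3, Ifit3b), a pair that stood highest in flox 2 (Oas1a, Oas1g), a gene with the widest spread in KO (Gbp2), the gene with the lowest p (Irgm1), the ubiquitin-like Isg15 and the most abundant member per length (Rsad2). Each is 30 bases on the gene's strand, with a single match in capitals, where TTTC, 2 bases and TTTC is the same element on the other strand. The stretches of Isg15, Irgm1, Oas1a and Oas1g also hold overlapping matches that are not set in capitals.
Isg15 (chr4:156200871-156200900, minus strand): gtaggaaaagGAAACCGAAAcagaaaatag
Ifit3 (chr19:34583397-34583426, plus strand): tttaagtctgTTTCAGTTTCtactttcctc
Ifit3b (chr19:34607793-34607822, plus strand): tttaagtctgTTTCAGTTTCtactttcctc
Oas1a (chr5:120907520-120907549, minus strand): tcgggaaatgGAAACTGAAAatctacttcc
Oas1g (chr5:120887606-120887635, minus strand): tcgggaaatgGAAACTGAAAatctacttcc
Gbp2 (chr3:142620594-142620623, plus strand): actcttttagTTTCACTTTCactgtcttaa
Irgm1 (chr11:48871425-48871454, minus strand): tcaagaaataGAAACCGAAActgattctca
Rsad2 (chr12:26456553-26456582, minus strand): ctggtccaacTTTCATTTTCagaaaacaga

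The comparison of KO with flox asked whether marrow without the microRNA cluster expressed this programme differently. No member passed. At an edgeR quasi-likelihood adjusted p of 0.05, 0 of the 48 genes were called, and 0 had an unadjusted p under 0.05, while 0.145% of all tested genes were called (0.134% higher and 0.0112% lower in KO) and 14.1% had such an unadjusted p. DESeq2 called 0 of the 48 and had 1 unadjusted p under 0.05, with 2.21% of its genes called, and limma-voom called 0 and had 0, with 0.0725% called. The fitted log2 fold change, KO minus flox, was above 0 for 33 of the 48 genes, against 48.1% of all tested genes, and its median was 0.10, against -0.01 over all tested genes. It ran from -0.62 for Oas1g to 0.37 for Slfn8. In 0 genes did all KO libraries lie above all flox libraries, and in 0 did all lie below, against 6.22% and 7.41% of all tested genes. The 95% interval stayed within a 2-fold difference either way for 38 genes. It reached further for the other 10, which were Zbp1, Ifit3, Ifit3b, Oas1a, Oas1g, Oas2, Oasl2, Gbp2, Slfn8 and Ifi27l2a.

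Where the programme did vary was between libraries of the same genotype. KO 1 was the highest of the 7 libraries for 38 of the 48 genes (79.2%), against 14.7% of all tested genes. It was the highest of the 4 KO libraries for 47 of them, against 26.6%, the exception being Isg20. Flox 2 was the highest of 7 for another 8 genes (16.7%), against 22% of all tested genes, and KO 1 and flox 2 were the highest pair for 27 genes. In KO 1 the level was at least 1.5 times that of the next KO library for 19 genes (39.6%), against 1.87% of all tested genes, and at least 2 times for 8. By Dixon's ratio, the gap to the next library over the range of the group, KO 1 stood apart from the other KO libraries for 16 genes (33.3%), against 1.39% of all tested genes. Relative to each gene's mean over the 7 libraries, the median log2 CPM of the set was 0.45 in KO 1 and -0.13, -0.15 and -0.11 in KO 2 to KO 4, against -0.01, 0.13 and -0.21 in flox 1 to flox 3. The same median over all tested genes lay between -0.01 and 0.03 in every library. Summed, the 48 genes stood at 3961, 2845, 3154 and 3023 CPM in KO 1 to KO 4 and at 3234, 3157 and 2818 CPM in flox 1 to flox 3. KO 2 to KO 4 thus lay beside the flox libraries and KO 1 above all of them. Rsad2 and Isg20, the most abundant members, weigh most in the sums, and both were lowest in flox 2 (510.5 and 185 CPM).

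**Figure D1:**
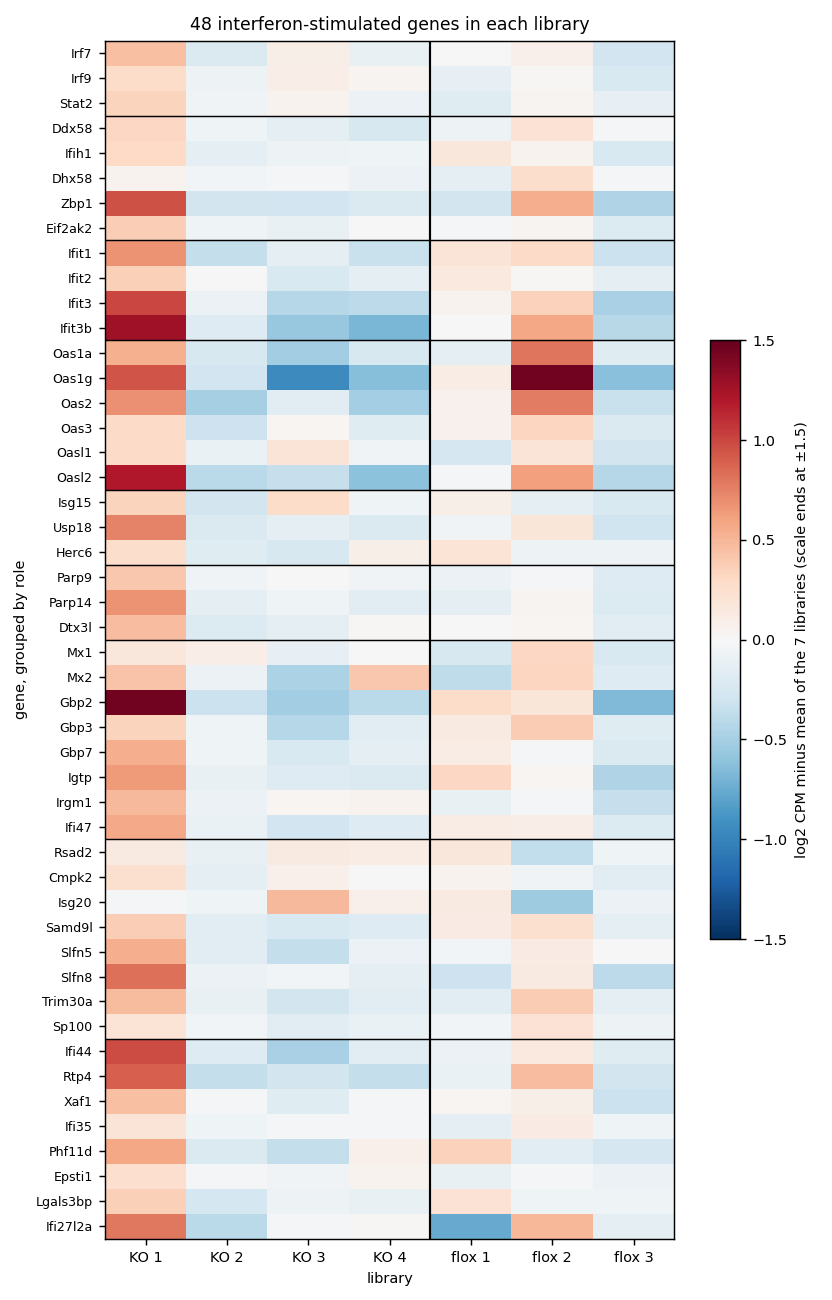
Each row is one of the 48 genes, grouped by role with black lines between groups, and each column a library, KO left of flox. Colour gives log2 CPM minus the gene's mean over the 7 libraries. The KO 1 column is red for nearly all genes, flox 2 is deepest for Oas1g (1.45), and Isg20 is highest in KO 3 (0.49).

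The 3 transcription factors were highest in KO 1. Irf9, the DNA-binding part of ISGF3 (chromosome 14, 55603571 to 55610030), had 110.4, 86.5, 97.5 and 93.6 CPM in KO 1 to KO 4 and 83.9, 92.5 and 77.8 CPM in flox 1 to flox 3. Its KO 2 library lay inside the flox range, and the log2 fold change was 0.19 (SE 0.10, edgeR adjusted p = 0.393; exact two-sided permutation p = 0.143, where the smallest possible over the 35 splits is 0.0286). Stat2, its partner (chromosome 10), had 65.0, 49.7, 53.5 and 48.2 CPM in KO and 45.5, 52.8 and 47.3 CPM in flox. Only KO 1 and KO 3 exceeded flox 2 there, and the log2 fold change was 0.16 (SE 0.11, edgeR adjusted p = 0.575). Irf7, the factor that amplifies interferon production, averaged 83.9 ± 17.8 CPM in KO and 76.3 ± 9.68 CPM in flox (SD, n = 4 and 3), with the highest value again in KO 1.

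Of the 5 sensors of foreign nucleic acid, 4 were highest in KO 1. Zbp1, which binds Z-form nucleic acid and starts necroptosis (chromosome 2, 173206612 to 173218923), had 28.1, 11.99, 11.9 and 12.5 CPM in KO and 11.99, 21.2 and 10.6 CPM in flox. KO 1 and flox 2 stood out, and the other 5 libraries lay within 2 CPM of each other. Ifih1, the sensor MDA5 of long double-stranded RNA, had 55.8, 40.9, 42.9 and 43.4 CPM in KO and 51.1, 46.8 and 38.7 CPM in flox, with the groups overlapping. Ddx58, which encodes RIG-I, averaged 48.1 ± 8.34 CPM in KO and 50.2 ± 5.65 CPM in flox, and Eif2ak2, the RNA-activated kinase PKR, 61.2 ± 9.90 and 56.4 ± 4.91 CPM. Dhx58, the third RIG-I-like receptor, was the exception, with 37.1 CPM in flox 2 and 28.01 to 31.9 CPM in the other 6 libraries.

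The IFIT genes encode proteins that bind viral RNA lacking host cap marks, and they lie side by side on chromosome 19 between 34550694 and 34650009. All 4 were highest in KO 1. Ifit3 had 18.8, 8.83, 6.99 and 7.12 CPM in KO and 9.70, 11.9 and 6.67 CPM in flox, and its near-copy Ifit3b had 8.37, 3.01, 2.31 and 2.12 CPM in KO and 3.41, 5.16 and 2.56 CPM in flox. In both genes KO 1 came first, flox 2 second, and KO 3 and KO 4 lay under flox 1 and flox 2. Ifit1 had 28.4, 13.8, 16.0 and 14.1 CPM in KO and 20.3, 21.6 and 14.1 CPM in flox. Ifit2 ran from 23.1 to 34.97 CPM in KO and from 24.7 to 30.04 CPM in flox. The log2 fold changes of the 4 genes ran from -0.05 to 0.15, with edgeR adjusted p of 0.916 or more. Of the 75-base stretches in Ifit3 transcripts, 41.1% also occur in Ifit3b, and 35.7% of those in Ifit3b occur in Ifit3, so their separate counts are uncertain.

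The OAS genes, which make the second messenger that switches on the RNA-degrading enzyme RNase L, and the related Oasl genes lie on chromosome 5. Flox 2 was highest for 4 of the 6 and KO 1 for the other 2; outside this family flox 2 was highest for Dhx58, Mx1, Gbp3 and Sp100. Oas1a (120896256 to 120907521) had 24.5, 14.4, 11.8 and 14.3 CPM in KO and 15.3, 29.4 and 14.9 CPM in flox. Oas2 had 37.4, 16.4, 20.7 and 16.3 CPM in KO and 24.3, 39.7 and 18.4 CPM in flox. Oas3, the most abundant of the family both in CPM and per length, had 192, 126, 161 and 138 CPM in KO and 165, 196 and 136 CPM in flox. In each of these flox 2 came first and KO 1 second, and the groups overlapped. Oas1g was the least abundant, with 4.32, 1.81, 1.13 and 1.41 CPM in KO and 2.41, 6.17 and 1.43 CPM in flox, and its fitted log2 fold change was the lowest of the set at -0.62 (SE 0.62, adjusted p = 0.728 by edgeR). Oas1a shares 47.6% of its 75-base stretches with Oas1g, and Oas1g 36.9% with Oas1a, so reads of the pair may be exchanged.

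Oasl2, an OAS-like protein with ubiquitin-like domains, showed one of the widest spreads. It had 108.6, 35.5, 37.1 and 30.7 CPM in KO and 46.3, 71.8 and 34.9 CPM in flox. KO 1 was 2.93 times the next KO library, flox 2 was second of all 7, and the log2 fold change was 0.06 with an SE of 0.54 (edgeR adjusted p = 0.981). Oasl1, a translational brake on Irf7, had 17.8, 13.6, 16.7 and 14.0 CPM in KO and 12.3, 16.6 and 12.01 CPM in flox (log2 fold change 0.18, SE 0.15, edgeR adjusted p = 0.634).

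**Figure D2:**
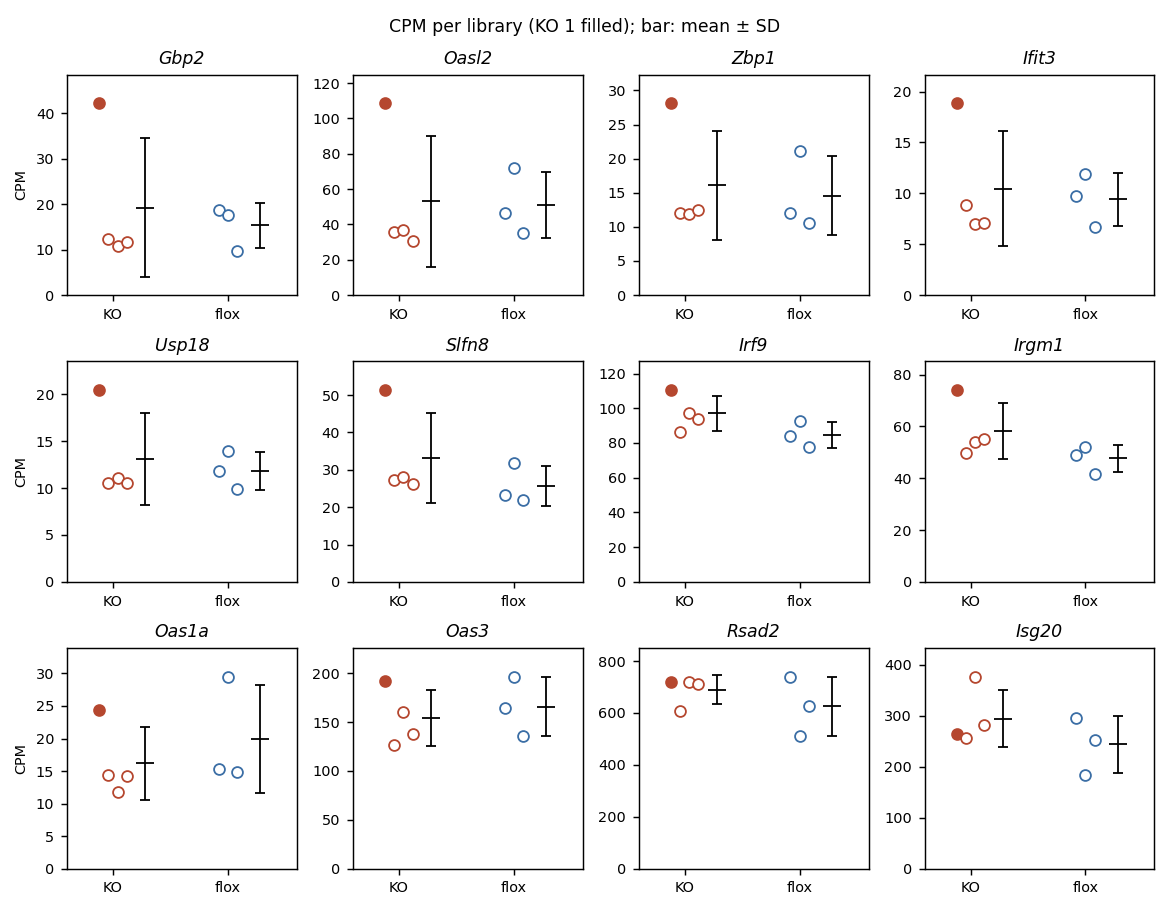
CPM of 12 genes in each library, KO left and flox right, from an axis that starts at 0. Circles are libraries, filled for KO 1, and bars give mean ± SD (n = 4 KO, n = 3 flox). In Gbp2, Oasl2, Zbp1, Ifit3, Usp18 and Slfn8 the filled circle lies far above the open KO circles (42.1 CPM above 10.8 to 12.3 CPM for Gbp2), while in Rsad2 and Isg20 it lies among them or near their top.

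The ubiquitin-like protein Isg15 and its enzymes were highest in KO 1 in 3 of 3 genes. Isg15 (chromosome 4, 156199424 to 156200818) had 101.2, 66.1, 96.7 and 77.0 CPM in KO and 85.6, 73.3 and 68.2 CPM in flox, with KO 1 and KO 3 close together and the groups overlapping. Usp18, the protease that removes Isg15 and damps the interferon receptor, had 20.4, 10.5, 11.03 and 10.5 CPM in KO and 11.8, 13.9 and 9.87 CPM in flox. KO 1 stood alone there, with the other KO libraries inside the flox range. Herc6, the mouse ligase for Isg15, averaged 32.1 ± 5.32 CPM in KO and 32.6 ± 3.82 CPM in flox.

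Parp14, Parp9 and Dtx3l sit together on chromosome 16 between 35832874 and 35972605 and encode ADP-ribosyltransferases and the ubiquitin ligase that pairs with Parp9. Parp14 had 123.4, 70.0, 74.3 and 69.3 CPM in KO and 70.7, 79.7 and 67.0 CPM in flox (log2 fold change 0.22, SE 0.21, edgeR adjusted p = 0.718). Parp9 had 65.9, 48.3, 50.3 and 48.3 CPM in KO and 46.9, 49.1 and 43.7 CPM in flox (0.19, SE 0.12, adjusted p = 0.495). In both genes KO 1 was apart. The other KO libraries lay inside the flox range for Parp14, as did KO 2 and KO 4 for Parp9. Dtx3l averaged 62.1 ± 14.0 CPM in KO and 57.9 ± 4.16 CPM in flox. Parp9 and Dtx3l are on opposite strands and share 458 exon bases, and reads there cannot be assigned without knowing whether strand was used.

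The GTPases that attack the membranes around intracellular microbes held both the widest spread and the lowest p of the set. Gbp2 (chromosome 3, 142620602 to 142638008) had 42.1, 12.3, 10.8 and 11.6 CPM in KO and 18.7, 17.5 and 9.70 CPM in flox. KO 1 was 3.41 times the next KO library, the largest such ratio among the 48 genes, while KO 2 to KO 4 lay under flox 1 and flox 2. The log2 fold change was 0.33 with an SE of 0.60 (edgeR adjusted p = 0.871). Irgm1, a regulator of the family and of autophagy (chromosome 11, 48861968 to 48871683), had 74.0, 49.7, 54.1 and 55.1 CPM in KO and 49.1, 52.1 and 41.7 CPM in flox. Apart from KO 2, its KO libraries exceeded all flox libraries, and it had the lowest p of the set with a log2 fold change of 0.29 (SE 0.14, 95% interval -0.03 to 0.60, edgeR adjusted p = 0.388; exact permutation p = 0.143).

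Of the other 6 GTPase genes, Mx1 and Gbp3 were highest in flox 2 and the rest in KO 1. Igtp had 52.6, 31.3, 29.5 and 29.2 CPM in KO and 42.0, 34.6 and 24.7 CPM in flox. Gbp7 had 66.5, 43.6, 38.9 and 41.2 CPM in KO and 49.0, 45.0 and 39.1 CPM in flox, with only KO 1 outside the flox range by more than 1 CPM. Gbp3 was higher in flox 2 than in KO 1, with 28.9, 21.9, 17.0 and 20.3 CPM in KO and 25.1, 29.7 and 20.2 CPM in flox (log2 fold change -0.18, SE 0.19, edgeR adjusted p = 0.735). Ifi47 averaged 45.5 ± 13.5 CPM in KO and 44.7 ± 5.31 CPM in flox. The dynamin-like genes Mx1 and Mx2, whose products are defective in many laboratory strains, ran from 11.6 to 14.1 and from 1.603 to 3.04 CPM in KO, and from 10.6 to 15.7 and from 1.71 to 2.83 CPM in flox.

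Both of the most abundant members, Rsad2 and Isg20, were highest in a library other than KO 1. Per kilobase of annotated exon, averaged over the 7 libraries, Rsad2 stood at 152.6 CPM, Isg20 at 146.8 and Isg15 at 107.3, and the least abundant were Ifi44 at 0.390 and Phf11d at 0.596. Rsad2, which encodes viperin, a maker of chain-terminating nucleotides (chromosome 12, 26442746 to 26456452), had 721, 606, 719 and 711 CPM in KO and 739, 510.5 and 626 CPM in flox. KO 2, flox 2 and flox 3 were the low libraries, and flox 1 was the highest (log2 fold change 0.14, SE 0.12, edgeR adjusted p = 0.677). The neighbouring Cmpk2, a nucleotide kinase of mitochondria, had 142.9, 108.7, 127.3 and 120.4 CPM in KO and 125.2, 116.7 and 106.9 CPM in flox.

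Isg20, an exonuclease that degrades viral RNA (chromosome 7, 78913424 to 78920396), was the only member highest in KO 3. It had 264, 257, 376 and 282 CPM in KO and 295, 185 and 253 CPM in flox (log2 fold change 0.27, SE 0.18, edgeR adjusted p = 0.570). The order of its 7 libraries was the same as that of the summed erythroid markers, from 34524 CPM in flox 2 to 72638 CPM in KO 3, and 1 of the 48 genes had that order. The part of red cell precursors in this value was not tested, and in bulk marrow fewer cells of a type and less RNA per cell cannot be told apart.

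Among the other effectors, Slfn8, of the Schlafen family, had 51.3, 27.1, 27.96 and 26.3 CPM in KO and 23.3, 31.7 and 22.0 CPM in flox, and it gave the highest log2 fold change of the set at 0.37 (SE 0.27, edgeR adjusted p = 0.606). Samd9l, an inhibitor of translation, had 216, 149, 142 and 146 CPM in KO and 182, 198 and 152 CPM in flox, so that KO 1 was above and the other KO libraries below all flox libraries. Sp100, a scaffold of nuclear bodies, had 284, 239, 219 and 229.8 CPM in KO and 239, 286 and 233 CPM in flox. Trim30a, a restraint on NF-kB signalling, had 110.6, 73.8, 65.9 and 71.1 CPM in KO and 71.6, 103.7 and 72.6 CPM in flox. In both, KO 1 and flox 2 were the highest pair. Slfn5 averaged 72.0 ± 21.4 CPM in KO and 72.1 ± 4.27 CPM in flox.

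All 8 of the remaining induced genes were highest in KO 1. Rtp4, a chaperone of receptors, had 29.98, 12.5, 13.3 and 12.6 CPM in KO and 14.999, 22.3 and 13.2 CPM in flox. Ifi44 had 4.49, 1.98, 1.603 and 2.003 CPM in KO and 2.13, 2.52 and 1.99 CPM in flox. Ifi27l2a, a small mitochondrial protein, had 41.8, 18.2, 23.8 and 24.4 CPM in KO and 14.2, 33.9 and 21.9 CPM in flox, with KO 1 and flox 2 high and flox 1 lowest. Epsti1 had 43.0, 35.8, 34.9 and 37.5 CPM in KO and 33.6, 35.9 and 34.0 CPM in flox (log2 fold change 0.13, SE 0.09, edgeR adjusted p = 0.533). Xaf1, Ifi35, Phf11d and Lgals3bp had log2 fold changes between -0.04 and 0.13.

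KO 1 was the highest KO library for 47 of the 48 genes, so their KO mean had to fall without it. Without KO 1 the balance of signs turned round. The median log2 fold change of the set was then -0.13, with 13 genes above 0 and 35 below, again with 0 called and a lowest edgeR adjusted p of 0.381. Unadjusted p under 0.05 was found for 2 of the 48 genes, both lower in KO, Samd9l (-0.28, SE 0.10) and Slfn5 (-0.23, SE 0.09). With all 7 libraries 14.1% of all tested genes had such an edgeR p, and the share without KO 1 is not given here. Without flox 2 the median was 0.17 with 44 genes above 0, and without flox 3 it was -0.02 with 23 above 0. The medians over all tested genes in those fits were 0.005 and -0.02. Unadjusted edgeR p under 0.05 was found for 4 of the 48 genes without flox 2, 3 without KO 2 and 2 without flox 1, all higher in KO. It was found for 0 without KO 3, KO 4 or flox 3. The shares of all genes in those fits are not given here either. Gbp2 alone went to -0.40 without KO 1, Oasl2 to -0.57 and Ifit3b to -0.58, while Irgm1 (0.15), Irf9 (0.13) and Isg20 (0.32) stayed above 0.

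**Figure D3:**
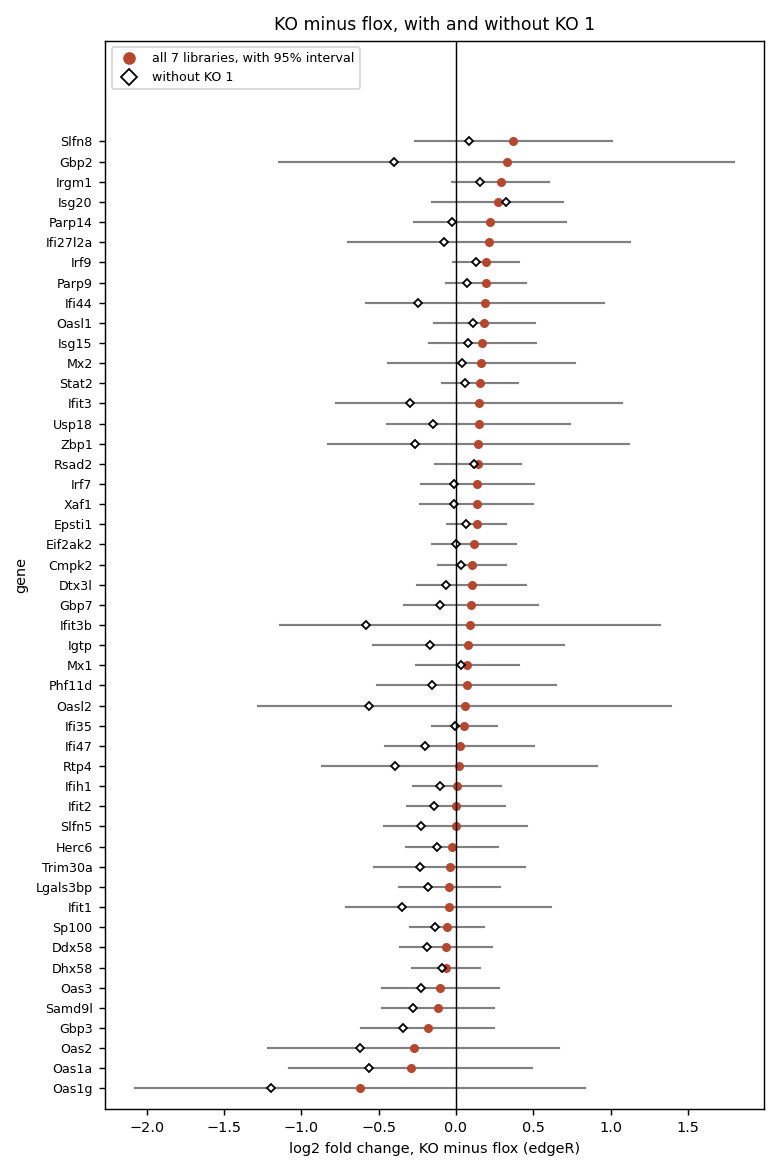
Log2 fold change, KO minus flox, of each of the 48 genes from the edgeR fit, as red points with 95% intervals, ordered by value, and the value without KO 1 as open diamonds. All 48 intervals cross 0, and 35 of the diamonds lie below 0.

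The genes upstream of the programme were read from lists of the pathway. Of 21 interferon genes, 16 had 0 counts in all 7 libraries, Ifnb1 among them, and none passed the filter. A count of 0 allows up to 3 counts, or 0.0632 to 0.0683 CPM in KO libraries and 0.0598 to 0.0641 CPM in flox libraries, for counting error only. Ifng, the interferon of T and NK cells, had 33, 7, 7 and 10 counts in KO 1 to KO 4 and 5, 9 and 5 counts in flox 1 to flox 3, the highest again in KO 1. Ifnar1, the first chain of the type I receptor, had 94.3, 85.3, 88.6 and 91.2 CPM in KO and 84.6, 84.0 and 82.5 CPM in flox, with all KO libraries above all flox libraries by a narrow margin (log2 fold change 0.10, SE 0.06, edgeR adjusted p = 0.515), and Ifnar2, the second chain, ran from 88.3 to 98.1 CPM in KO and from 93.3 to 100.6 CPM in flox. Over the list of 14 receptor and proximal signalling genes, 0 were called, 4 were above 0 and 10 below, and the median was -0.07. The feedback inhibitor Socs1 had 7.08, 5.35, 6.07 and 5.42 CPM in KO and 3.23, 4.98 and 5.41 CPM in flox (log2 fold change 0.40, SE 0.20, adjusted p = 0.393). The phosphatase Ptpn11 had 165.1, 159.4, 167.7 and 161.1 CPM in KO and 192.9, 168.7 and 181.3 CPM in flox (-0.15, SE 0.07, adjusted p = 0.366). The groups overlapped for Socs1 and not for Ptpn11. Il10rb, a chain of the type III receptor, had 48.97, 43.98, 39.5 and 39.3 CPM in KO and 48.5, 52.3 and 43.5 CPM in flox (-0.16, SE 0.10, adjusted p = 0.4995), and Ifngr1 had 160.2, 197.9, 169.8 and 209.2 CPM in KO and 199.6, 229.9 and 194.7 CPM in flox (-0.18, SE 0.11, adjusted p = 0.501), with overlap in both.

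Genes that start or restrain interferon production were called in 0 of 23 tested cases. Of these, 2 had an unadjusted p under 0.05 (8.7%, below the 14.1% of all tested genes). The 4 with the lowest p are given as values only. Tlr9, the DNA sensor of plasmacytoid dendritic cells and B cells, had 30.5, 20.9, 24.0 and 21.6 CPM in KO and 14.0, 20.001 and 19.1 CPM in flox, so the groups did not overlap (log2 fold change 0.45, SE 0.16, edgeR adjusted p = 0.280). Tlr7, the sensor of single-stranded RNA, had 26.4, 27.2, 28.1 and 25.04 CPM in KO and 25.04, 21.7 and 22.2 CPM in flox (0.22, SE 0.08, adjusted p = 0.295). The adaptor Myd88 had 69.6, 70.7, 70.5 and 56.8 CPM in KO and 71.4, 92.6 and 73.1 CPM in flox (-0.24, SE 0.11, adjusted p = 0.374). The KO libraries lay below the flox libraries for Myd88. The kinase Ikbke had 39.6, 27.7, 28.7 and 28.6 CPM in KO and 37.5, 51.4 and 32.6 CPM in flox (-0.38, SE 0.18, adjusted p = 0.386), with overlap through KO 1. The median of this list was 0.03, and 12 of its 23 genes were highest in KO 1.

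A further 61 interferon-induced genes outside the set showed the same leading library. KO 1 was highest for 44 of them and flox 2 for 11, and the list's median relative to gene means was 0.37 in KO 1 and -0.13 to 0.08 in the other 6 libraries. None was called by edgeR, and the median log2 fold change was 0.14. An unadjusted p under 0.05 was found for 5 (8.2%), all higher in KO, a share below the 14.1% of all tested genes, so the 5 are given as values only. In these 5 genes, picked by their low p, every KO library lay above every flox library, as in 6.22% of all tested genes. Gbp9, a guanylate-binding protein, had 40.7, 28.8, 26.0 and 25.4 CPM in KO and 11.9, 18.6 and 19.2 CPM in flox (0.87, SE 0.22, adjusted p = 0.207). Gbp4, of the same family, had 20.9, 12.4, 10.1 and 11.2 CPM in KO and 7.11, 9.28 and 8.23 CPM in flox (0.74, SE 0.25, adjusted p = 0.269). Ifit1bl1 had 5.46, 3.80, 3.48 and 3.14 CPM in KO and 2.97, 2.44 and 2.52 CPM in flox (0.59, SE 0.21, adjusted p = 0.277). Gbp9, Gbp4 and Ifit1bl1 were again highest in KO 1. The ubiquitin ligase Trim25 was highest in KO 4, with 134.4, 124.2, 147.0 and 169.7 CPM in KO and 106.1, 117.7 and 122.7 CPM in flox (0.32, SE 0.11, adjusted p = 0.262), and Ifi213 gave 0.70 (SE 0.30, adjusted p = 0.346). The promoter windows of this list held the response element in 25 of 51 genes (49%), close to the share in the set.

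**Figure D4:**
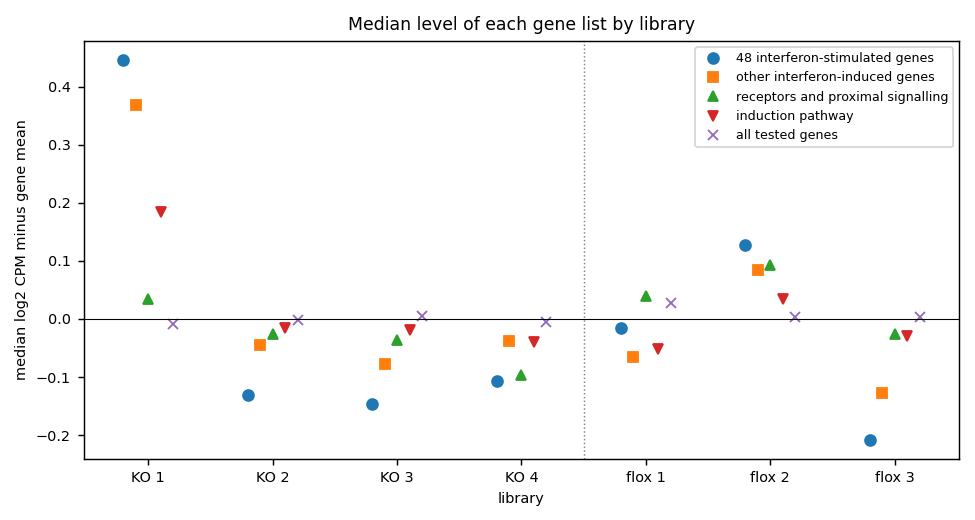
For each library, KO left of flox, the median over a list of log2 CPM minus the gene's mean over the 7 libraries. Both lists of interferon-induced genes reach 0.45 and 0.37 in KO 1 and lie between -0.21 and 0.13 elsewhere, the induction pathway reaches 0.18 in KO 1, and receptor genes and all tested genes stay between -0.10 and 0.09 in every library.

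Markers of marrow cell types moved between libraries too, and their part in the values above was not tested. All 10 plasmacytoid dendritic cell markers, a list that shares Bst2 with the induced genes, were detected. They summed to 325 to 422 CPM in KO and 177 to 325 CPM in flox, and KO 1 was highest for 6 of them. Spib alone gave 114 to 190 CPM of these sums in KO and 15.1, 77.5 and 119 CPM in flox 1 to flox 3. Flox 1 was lowest for 8 of the 10 markers, Spib among them. All 12 B lineage markers were detected as well, at 853 to 1091 CPM summed in KO and 79.99 to 802 CPM in flox, with KO 1 highest for 8 of 12 and flox 1 lowest for 12 of 12. The 12 neutrophil markers were lowest in KO 1 for 7 and highest in flox 2 for 12, with 34163 CPM summed in KO 1 and 60513 CPM in flox 2. KO 1 and flox 2, the highest pair for 27 of the 48 genes, had the lowest and the highest neutrophil sum. In summed CPM of the 48 genes, flox 1 (3234) came next after KO 1 (3961), with flox 2 at 3157. Rsad2 and Isg20 gave 739 and 295 CPM of the flox 1 sum and 510.5 and 185 CPM of the flox 2 sum. By the median relative to gene means, flox 2 (0.13) lay above flox 1 (-0.01). Monocyte and macrophage markers, 12 of 12 detected, summed to 1462 to 1849 CPM in KO and 1728 to 2081 CPM in flox, and T and NK cell markers, 11 of 11 detected, to 142 to 168 CPM in KO and 141 to 177 CPM in flox. KO 1 was highest for 5 of the 11 T and NK markers and flox 2 for 1, Nkg7, which alone gave 84.0 of the 177 CPM in flox 2. Intestinal markers, 12 of 12 detected, were higher in KO at 114 to 128 CPM against 51.3 to 52.5 CPM in flox, and KO 1 was highest for 0 of them.

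**Figure D5:**
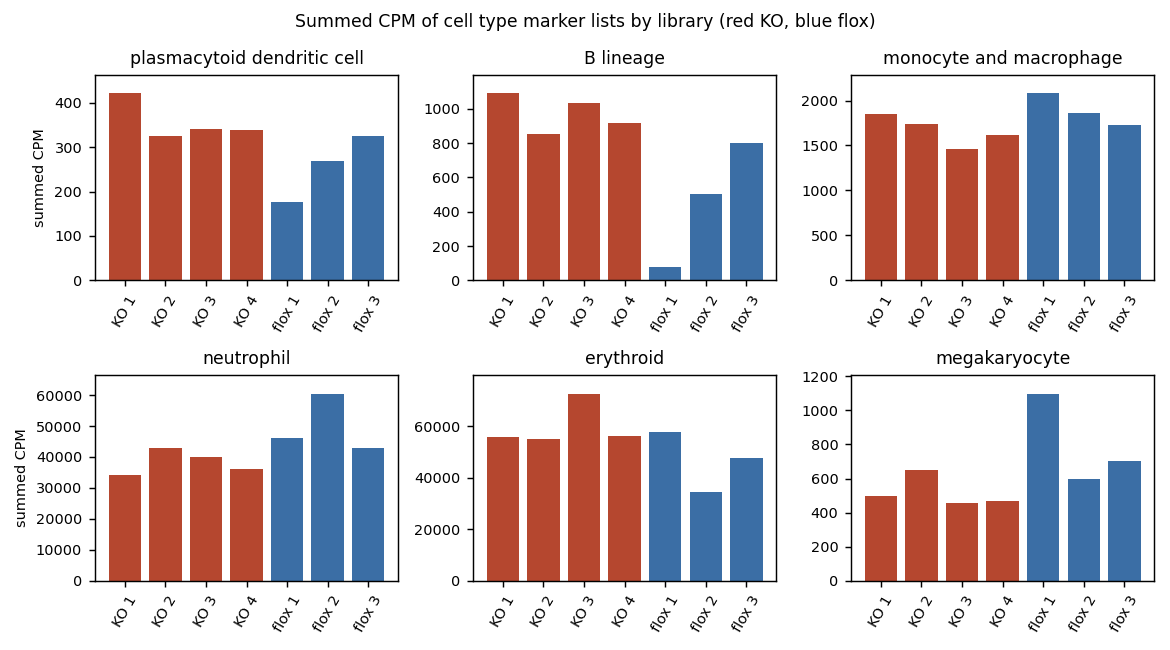
Summed CPM of 6 marker lists in each library, KO in red at left and flox in blue at right, on axes from 0. KO 1 has the highest sums of plasmacytoid dendritic cell (422 CPM) and B lineage (1091 CPM) markers and the lowest of neutrophil markers (34163 CPM), and flox 2 has the highest neutrophil (60513 CPM) and lowest erythroid (34524 CPM) sums.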

How the data were processed

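RNA was sequenced from bone marrow of 4 KO and 3 flox samples. The deposited table holds raw counts per Ensembl gene, 1 column per library, matched to samples by the library codes in the labels; 0 columns were unmapped. The submitters' processing notes name Trimmomatic 0.36, STAR 2.5.2b, featureCounts from the Subread package (1.5.2) and the GRCm38 build. Strandedness, annotation release and the treatment of multi-mapping reads were not stated there, so reads of near-copies and overlapping genes may be split or lost.

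Symbols, positions and exon lengths came from GENCODE M21 (GRCm38); 49056 of 49315 IDs matched. No pair of libraries of a group agreed within sampling noise (chi-square per degree of freedom 19.0 to 90.6), so all 7 were counted. With R 4.3.3, counts were filtered (filterByExpr, minimum count 10), TMM-scaled and fitted with edgeR 4.0.16 (robust glmQLFit, glmQLFTest, two-sided, Benjamini-Hochberg over 17920 genes, threshold 0.05); the method was tested on simulated data. SEs are those implied by the F statistic. Log2 CPM uses a prior count of 2. DESeq2 1.42.0, limma 3.58.1 (voom), other scalings and filters, the replicate number as a block and each library left out were alternatives.

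The members and lists were chosen with earlier results of these data known. Full values are given for members with the 8 lowest p, the 6 highest and 4 lowest fold changes, the 8 highest CPM, the 6 largest SD of log2 CPM in KO, or KO 1 apart by Dixon's ratio, and for the 4 lowest p of each pathway list with Ifnb1, Ifng, Ifnar1 and Ifnar2, and 1 further gene that is not reported here; other genes were named after their values were seen. Shared transcript stretches were exact 75-base matches among GENCODE M21 transcripts.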

Additional observations from a re-analysis of the deposited data

Results flagged for a closer look

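In 16 of the 48 genes the KO 1 library lay apart from the other KO libraries: its gap to the next library, as a share of the range of the 4 KO libraries in CPM, exceeded the 95% critical value of Dixon's ratio. Among all tested genes 1.39% had KO 1 apart on the high side in this way. Chance flags about 1 in 20 groups, but at either end and for any library, so that rate does not match a count of KO 1 on the high side. Genes of one programme are also not independent. The ratio was 0.965 for Zbp1, 0.953 for Rtp4, 0.949 for Gbp2 and 0.946 for Usp18. It was 0.934 for Slfn8, 0.918 for Oasl2, 0.909 for Parp14 and Igtp and 0.905 for Samd9l. It was 0.883 for Parp9, 0.862 for Ifi44, 0.858 for Ifit3b, 0.851 for Ifit1 and 0.845 for Ifit3. The ratios of Ifih1 (0.831) and Gbp7 (0.831) lay just above the critical value.

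The median of the set relative to gene means stood apart in KO 1 with a ratio of 0.934, whereas the summed CPM of the set did not (0.723). Rsad2 was flagged at the other end, with KO 2 at 606 CPM apart below the other KO libraries (ratio 0.912).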

How the results depend on the processing

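The count of members called was 0 under all 16 alternatives run, and the median log2 fold change of the set, 0.10, was 0.07 to 0.13 under the 9 other than leaving out each library in turn. Leaving out each library in turn gave medians from -0.13 to 0.17, below 0 without KO 1 and without flox 3. Without KO 1 it was -0.13, against -0.0085 over all tested genes. Without flox 3 it was -0.016, level with the -0.015 over all tested genes. The count over all genes was 26 and became 365 with DESeq2, 13 with limma-voom, 112 without a filter on low counts, 16 with a non-robust dispersion, and 2 to 14 with a library left out; fewer samples were fitted in the last, and otherwise the cause was not tested. With total counts in place of TMM, 1 member had all KO libraries above all flox libraries and flox 2 led for 5 members. Other scalings moved the median of all genes by less than 0.03. With limma-voom 4 of the 48 genes changed sign, Ifit3b (-0.090), Oasl2 (-0.088), Rtp4 (-0.049) and Ifi47 (-0.0082), and with the replicate block 2, Ifit1 (0.0098) and Ifit2 (0.034). Other scalings turned 2 or 3 genes. With a library left out, 34 of the 48 genes changed sign in at least 1 fit, 20 of them without KO 1. Among the 32 genes given full values by rule, 20 changed sign in at least 1 fit, and these ranged from -0.10 to 0.092 for Ifih1, -0.27 to 0.53 for Zbp1, -0.35 to 0.089 for Ifit1, -0.30 to 0.37 for Ifit3, -0.58 to 0.43 for Ifit3b, -0.56 to 0.12 for Oas1a, -1.20 to 0.20 for Oas1g, -0.62 to 0.11 for Oas2, -0.23 to 0.057 for Oas3, -0.57 to 0.41 for Oasl2, -0.15 to 0.30 for Usp18, -0.025 to 0.31 for Parp14, -0.40 to 0.54 for Gbp2, -0.11 to 0.20 for Gbp7, -0.17 to 0.26 for Igtp, -0.23 to 0.17 for Trim30a, -0.14 to 0.058 for Sp100, -0.25 to 0.37 for Ifi44, -0.39 to 0.29 for Rtp4 and -0.075 to 0.60 for Ifi27l2a. The block, on replicates 1 to 3, called 4 genes and 0 members. Same-numbered libraries were correlated at -0.02, 0.08 and 0.02 after removal of group means, so the numbers are taken as names only.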

Other observations

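Members of the IFITM family, which block viral fusion at membranes, had fitted fold changes below 0. Among the 48 genes 15 were below 0 with all 7 libraries, and 35 were without KO 1. Ifitm1, Ifitm2, Ifitm3 and Ifitm6 gave log2 fold changes of -0.40, -0.32, -0.27 and -0.35, and Ly6c2, an interferon-responsive surface protein of monocytes and granulocytes, gave -0.32, with 0 called by edgeR and 0 at an unadjusted p under 0.05. Ifitm6 had 248, 346, 368 and 323 CPM in KO 1 to KO 4 and 329.9, 538 and 358 CPM in flox 1 to flox 3. Flox 2 was the highest library in all 5 of these genes, as it was for the 12 neutrophil markers and for 22% of all tested genes. The part of neutrophils in these values was not tested. The 5 genes were named after their values were seen.

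The chemokine genes Cxcl9 and Cxcl10, which answer strongly to interferon gamma, were also highest in KO 1. Cxcl10 had 9.97, 2.71, 1.30 and 1.27 CPM in KO 1 to KO 4 and 1.87, 2.93 and 1.47 CPM in flox 1 to flox 3. Cxcl9 had 15.2, 4.44, 3.48 and 2.64 CPM in KO and 10.2, 5.76 and 2.76 CPM in flox. The GTPase genes Tgtp1 and Tgtp2 followed, with 6.62 and 24.4 CPM in KO 1 and at most 1.86 and 12.9 CPM elsewhere.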
